A study of Mus musculus with 2 samples.

Results

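Interferon-stimulated genes are the antiviral and antimicrobial genes that cells switch on through interferon receptors, and 39 of them were followed here in the spleen of a mouse whose labels name no treatment or infection. The genes were taken by name, not by a threshold on their levels. Of the 39, 37 were matched by gene identifier among 43346 rows with an Ensembl identifier, and 36 were abundant enough to be compared between libraries, out of 12467 such genes. The guanylate-binding protein genes Gbp5 and Gbp6 had no row under their own identifier and are not counted below. By the interferon each family is best known for, 24 members were treated as type I targets, 12 as type II targets and 3 as targets of both.

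Polyadenylated RNA came from whole spleen of 1 male C57BL/6J mouse, an inbred laboratory strain, aged 10 weeks. The labels call the 2 libraries technical replicate 2 and technical replicate 1 of the same biological replicate. The labels add that technical replicate 2 was made later and did not enter the earlier publication. Each library stands alone on its side, so the differences below have no replicate check and carry counting error only, and spread between mice was not measured.

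Type I interferons signal through a receptor whose kinases, JAK1 and TYK2, activate a complex that contains STAT2 and IRF9 and binds a DNA element called the interferon-stimulated response element (ISRE). Type II interferon, interferon gamma, signals through JAK1 and JAK2 to genes with a gamma-activated site (GAS), and induces IRF1 and the GTPases of the GBP and IRG families. Many cells keep a low tonic expression of these genes without infection, and most of the genes respond to both interferons to some degree.

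Most members with a promoter sequence at hand held an ISRE, and fewer held a GAS. In RefSeq windows of GRCm38.p6 that run from 250 bases before to 50 bases after the start, the ISRE core was searched on both strands as GAAA, any 2 bases and GAAA. It was found in 15 of 27 members with a window (55.6%), against 1079 of 27025 genes (3.99%). The GAS motif, TTCNNNGAA on both strands, was found in 9 of 27 members (33.3%), against 9.55% of genes. Among type II targets, Gbp5 included, 7 of 8 held an ISRE core, 5 of 8 a GAS and 4 of 8 both. Among type I targets, 8 of 18 held an ISRE core, 4 of 18 a GAS and 1 of 18 both. No ISRE core shared bases with a GAS in any member's window. A match describes letters in a window and is no evidence of binding, and a window without a match says nothing about the factor.

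The 120 bases before the start of 9 members show where both motifs stand in genes whose values carry the comparisons of families. They read 5′ to 3′ on the strand of the gene, and capitals mark the ISRE core or GAS. A motif found on the opposite strand reads TTTC, any 2 bases and TTTC, and overlapping cores appear as a longer run of capitals.
Isg15, chr4:156200819-156200938, minus strand: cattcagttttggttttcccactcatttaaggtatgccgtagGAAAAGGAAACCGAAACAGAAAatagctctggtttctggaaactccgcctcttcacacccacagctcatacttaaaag
Ifit1, chr19:34640769-34640888, plus strand: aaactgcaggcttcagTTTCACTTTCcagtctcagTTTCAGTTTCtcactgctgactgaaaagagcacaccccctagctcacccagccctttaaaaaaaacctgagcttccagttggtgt
Oas3, chr5:120777660-120777779, minus strand: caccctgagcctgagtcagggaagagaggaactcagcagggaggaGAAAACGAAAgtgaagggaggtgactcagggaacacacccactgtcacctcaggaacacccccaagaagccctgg
Oas1a, chr5:120907526-120907645, minus strand: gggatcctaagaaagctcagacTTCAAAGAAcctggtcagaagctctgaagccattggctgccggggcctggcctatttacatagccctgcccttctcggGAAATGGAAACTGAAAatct
Irf1, chr11:53769894-53770013, plus strand: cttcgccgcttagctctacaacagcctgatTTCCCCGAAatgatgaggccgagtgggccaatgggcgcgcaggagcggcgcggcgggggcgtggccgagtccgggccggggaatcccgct
Gbp2, chr3:142620543-142620662, plus strand: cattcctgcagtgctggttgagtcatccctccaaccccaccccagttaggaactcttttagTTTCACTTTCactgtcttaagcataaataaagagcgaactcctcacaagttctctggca
Gbp7, chr3:142530216-142530335, plus strand: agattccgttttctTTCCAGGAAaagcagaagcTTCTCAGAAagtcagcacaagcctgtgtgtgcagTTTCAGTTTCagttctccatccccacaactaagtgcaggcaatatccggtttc
Igtp, chr11:58199436-58199555, plus strand: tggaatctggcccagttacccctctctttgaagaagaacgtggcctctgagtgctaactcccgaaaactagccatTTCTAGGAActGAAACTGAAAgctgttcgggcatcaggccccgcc
Irgm2, chr11:58214857-58214976, plus strand: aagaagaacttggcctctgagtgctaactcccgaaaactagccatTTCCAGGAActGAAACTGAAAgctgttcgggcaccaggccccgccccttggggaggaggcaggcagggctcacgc

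The motifs stand in different arrangements. Isg15 holds 3 ISRE cores that overlap, with first bases at −78, −72 and −66 from the start, and no GAS. Irf1 holds a GAS at −90 and no ISRE core in its window. Igtp and Irgm2, neighbouring genes of the IRG family, hold a GAS followed after 2 bases by an ISRE core. Over 90 aligned bases around that pair the Igtp and Irgm2 promoters differ at 3 positions (96.7% identical), although the pair begins at −45 in Igtp and at −75 in Irgm2. Gbp7 holds GAS matches at −106 and −87 ahead of an ISRE core at −53. Oas1a holds overlapping cores at −20 and −14, and its near copy Oas1g holds them at −18 and −12.

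**Figure D1:**
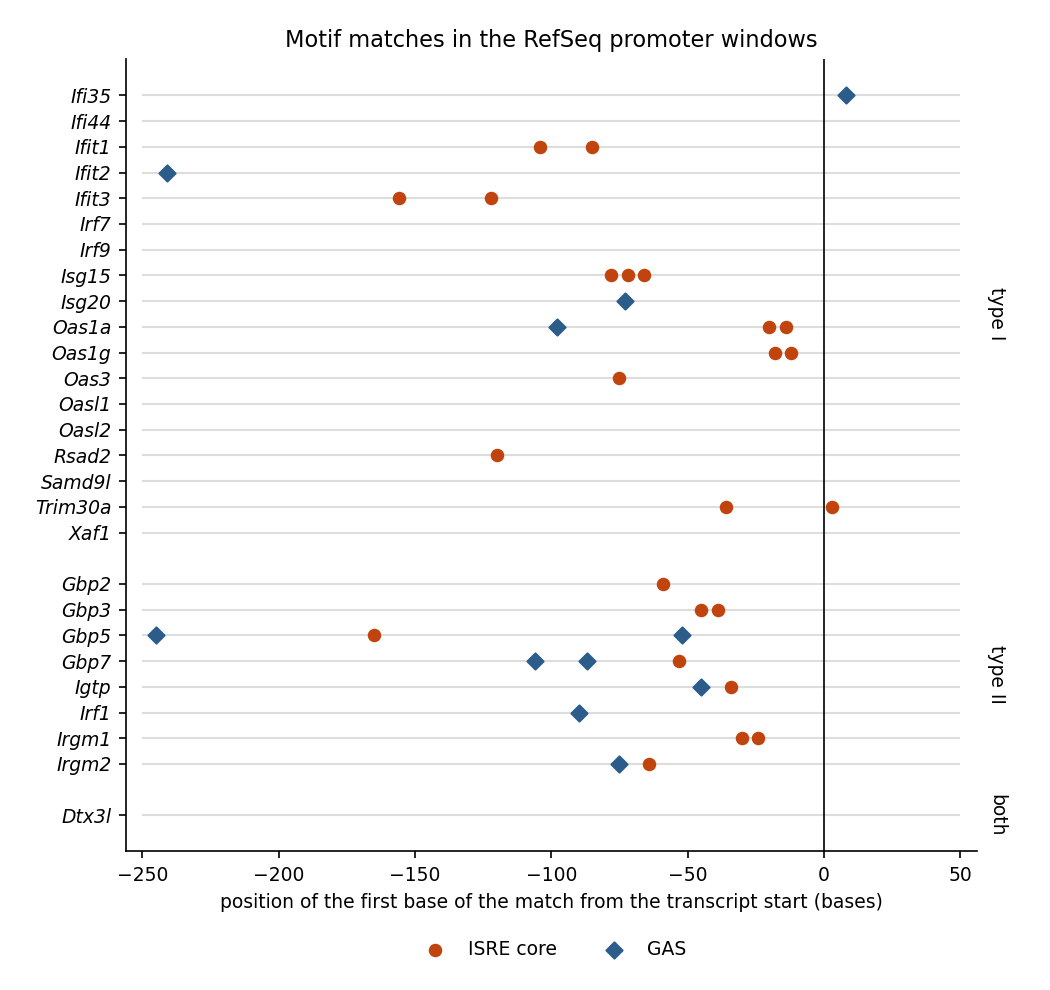
First base of each ISRE core (circles) and GAS (diamonds) from the transcript start, in bases, in the RefSeq windows of 27 members, grouped by interferon type. Each of the 8 type II targets with a window has at least 1 match, whereas 7 of 18 type I targets have none.

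The spleen transcribed all of the matched members at a measurable level in the deeper library. At 1 TPM (transcripts per 1000000, a level per length), 25 of 37 members were detected in technical replicate 2 and 37 of 37 in technical replicate 1. The members summed to 346 TPM in technical replicate 2 and 1742 TPM in technical replicate 1. Their median was 3.79 TPM in technical replicate 2 and 40.8 TPM in technical replicate 1. At 10 TPM, technical replicate 2 held 8 members and technical replicate 1 held 32. The members Ifit2, Oas1g, Oas2 and Mx1 had no count in technical replicate 2, and no member was at 0 in technical replicate 1. Only Ifi35 and Isg15 had a higher TPM in technical replicate 2. Lower TPM was common to other genes. With 1 TPM added to each value, the median log2 TPM ratio, technical replicate 2 over 1, was −2.76 over the compared members. Over all compared genes it was −2.10.

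The libraries differed in depth and composition. Rounded counts on genes totalled 3806385 in technical replicate 2 and 27528810 in technical replicate 1, and globin genes held 44.2% of TPM in technical replicate 2 and 4.26% in technical replicate 1. Genes at 1 TPM or more numbered 9390 in technical replicate 2 and 13937 in technical replicate 1. Markers of B cells, T cells, red pulp macrophages, neutrophils and erythroid cells were all at 1 TPM or more in both libraries. Of 4 NK cell markers, 2 reached 1 TPM in technical replicate 2 and 4 in technical replicate 1. Of 4 conventional dendritic cell markers, 3 reached it in technical replicate 2 and 4 in technical replicate 1. The 4 erythroid markers summed to 213401 TPM in technical replicate 2 and 35548 TPM in technical replicate 1, and the 6 B cell markers to 1248 TPM in technical replicate 2 and 3064 TPM in technical replicate 1. The 4 pancreas markers summed to 4.47 TPM in technical replicate 2, where 1 reached 1 TPM, and to 52.2 TPM in technical replicate 1, where 4 did. No liver marker of 3 did so in either library. The part of these differences in the results below was not tested, and in whole tissue fewer cells of a type and less RNA per cell cannot be told apart.

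Ratios below are of counts scaled by trimmed mean of M values (TMM), technical replicate 2 over technical replicate 1, with an exact 95% Clopper-Pearson interval. Calls of higher or lower are for members whose entire interval is past 1.5-fold. Of 36 members compared, 13 were lower, 7 were higher and 16 were neither. Among all 12467 genes the same rule called 32.6% lower and 28% higher, so the members' share lower (36.1%) was near the background. The median log2 ratio of the members was −0.57, beside −0.27 over all compared genes. Scaling by total counts shifts every ratio down by 1.26 on the log2 scale and gave 27 lower and 3 higher members, beside 58.5% lower and 14.6% higher over all genes. By total counts, 14 of the 16 members called neither way by TMM, all but Ifit1 and Zbp1, were lower. A member is said below to hold under every scaling when TMM, DESeq2 size factors and total counts all called it the same way and its TPM had the same direction, which held for 12 lower and 2 higher members, beside 30.5% and 11.8% of all genes.

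**Figure D2:**
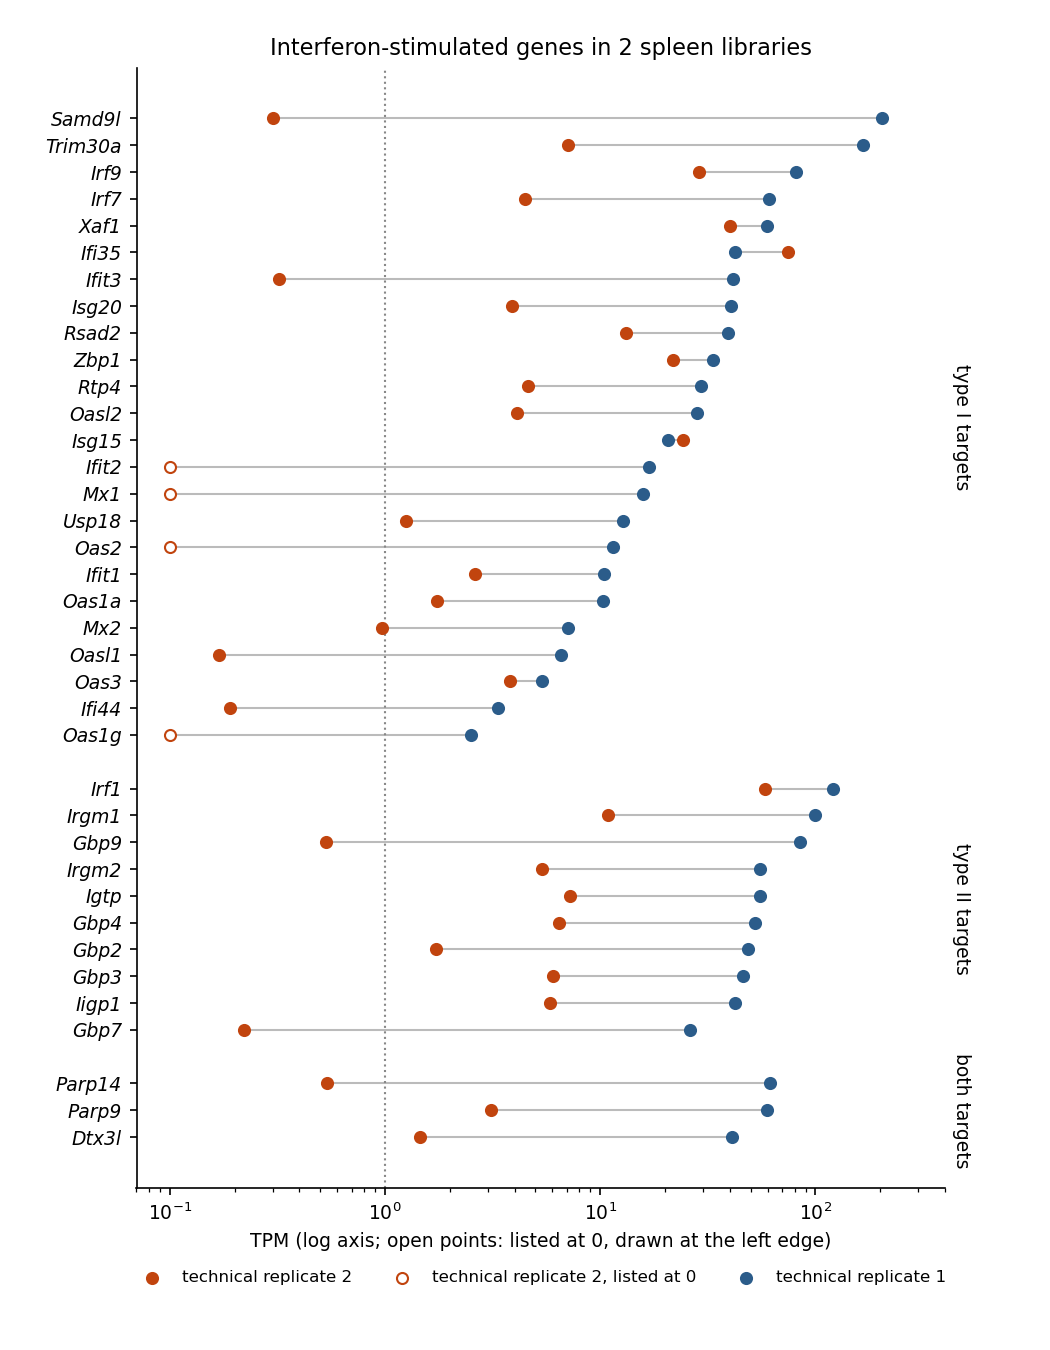
TPM of the 37 matched members on a log axis in technical replicate 2 (orange) and technical replicate 1 (blue), ordered within each type by technical replicate 1. Open points are members listed at 0 in technical replicate 2, drawn at 0.1, and the dotted line is 1 TPM. Only Ifi35 and Isg15 lie further right in technical replicate 2.

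The order of the members changed between the libraries. In technical replicate 2 the leading members were Ifi35, Irf1, Xaf1, Irf9 and Isg15, which together held 65.3% of the members' TPM. In technical replicate 1 they were Samd9l, Trim30a, Irf1, Irgm1 and Gbp9, with 38.8%. Irf1 was among the first 5 in both, and 5 of the first 10 were shared. Across the 37 members the Spearman rank correlation of TPM between the libraries was 0.49, and across all compared genes it was 0.52. That correlation is a description across genes of 2 libraries, which share the animal and not the depth.

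Type I targets summed to 238 TPM in technical replicate 2 and 950.1 TPM in technical replicate 1. Type II targets summed to 103 TPM in technical replicate 2 and 630.5 TPM in technical replicate 1. The ratio of type I to type II summed TPM was therefore 2.31 in technical replicate 2 and 1.51 in technical replicate 1, over 24 and 10 matched genes. Over all genes 32.6% were lower and 28% higher, with a median log2 ratio of −0.27. Of 23 type I targets compared, 6 were lower (26.1%) and 6 higher, with a median of −0.20. Of 10 type II targets compared, 4 were lower (40%) and 1 higher, with a median of −0.57. By total counts 15 type I targets were lower and 3 higher, and 9 type II targets were lower. That scaling called 58.5% of all genes lower and 14.6% higher. All 3 targets of both interferons were lower by either scaling.

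The log2 ratios of the summed counts depended on a few genes in both types. Without Irf1, the type II targets summed to 44.3 TPM in technical replicate 2 and 510.2 TPM in technical replicate 1, and the log2 ratio of their summed counts was −1.18 (interval −1.29 to −1.07), beside −0.43 with Irf1. Without Samd9l and Trim30a, the type I targets summed to 230.4 TPM in technical replicate 2 and 580 TPM in technical replicate 1, and their summed log2 ratio was 0.87 (0.80 to 0.94), beside −0.33 with both. Irf1, Samd9l and Trim30a were singled out after their values were seen. With the trend of the ratios on GC content removed, the difference of medians between type II and type I was 0.22, against −0.37 without that step, so its sign depended on this setting.

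Among the sensors and effectors of the type I response, the IFIT proteins bind viral RNA ends. Ifit1 had 2.63 TPM (39 counts) in technical replicate 2 and 10.4 TPM (489 counts) in technical replicate 1, a log2 ratio of 0.47 (−0.04 to 0.94), which was called neither way. Ifit2 had 0 counts in technical replicate 2 and 1130 counts (16.8 TPM) in technical replicate 1, where TMM scaling would place 65.1 counts in technical replicate 2. With a floor of 3 counts per library, Ifit2 was 21.7-fold lower, a log2 ratio of −4.44 with the upper end of its interval at −4.14. Ifit3 had 3 counts (0.32 TPM) in technical replicate 2 and 1228 counts (41.3 TPM) in technical replicate 1, a log2 ratio of −4.56 (−6.84 to −3.01). Thus neighbouring genes of 1 family, which lie together at chr19:34550694-34650009 (GRCm38), took different calls, with Ifit2 and Ifit3 lower and Ifit1 neither. Ifit3 shares sequence with Ifit3b, which had 4 counts in technical replicate 2 and 226 in technical replicate 1, so reads may have been divided between them.

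The OAS enzymes make the second messenger that activates RNase L. Oas3 had 3.79 TPM (102 counts) in technical replicate 2 and 5.38 TPM (466 counts) in technical replicate 1, a log2 ratio of 1.93 (1.60 to 2.24), called higher by TMM and neither way by total counts. Its neighbour Oas2 had 0 counts in technical replicate 2 and 744 counts (11.4 TPM) in technical replicate 1. At the floor Oas2 was 14.3-fold lower, a log2 ratio of −3.84 with the upper end of its interval at −3.54. Oas2 and Oas3 lie in the same cluster as Oas1a and Oas1g, at chr5:120730333-120907521. Oas1a had 1.75 TPM in technical replicate 2 and 10.3 TPM in technical replicate 1 and was called neither way. Oas1g had 0 counts in technical replicate 2 and 39.8 in technical replicate 1, where TMM scaling would place 2.3 counts in technical replicate 2, under the floor. Oas1a and Oas1g are near copies, and the deposited posterior mean counts in technical replicate 2 were 14.1 for Oas1a and 3.93 for Oas1g. Oasl2, an OAS-like protein, had 4.11 TPM in technical replicate 2 and 28.2 TPM in technical replicate 1 (log2 ratio −0.32, −0.77 to 0.11). Oasl1, with 2 counts in technical replicate 2 and 167 counts in technical replicate 1, was also called neither way.

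The MX proteins are dynamin-like GTPases that block virus particles, and laboratory strains such as C57BL/6 are known to carry defective alleles. Mx1 had 0 counts in technical replicate 2 and 767 counts (15.8 TPM) in technical replicate 1. At the floor Mx1 was 14.7-fold lower, a log2 ratio of −3.88 with the upper end of its interval at −3.58. Mx2 had 0.97 TPM (13 counts) in technical replicate 2 and 7.09 TPM (252 counts) in technical replicate 1, a log2 ratio of −0.16 (−1.09 to 0.64). Among compared genes at 10 TPM or more in technical replicate 1, 404 of 8507 (4.75%) had no count in technical replicate 2, and among such members Ifit2, Oas2 and Mx1, 3 of 32, had none.

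Members that were higher in technical replicate 2 were led by Ifi35, which encodes a leucine zipper protein induced by interferon (chr11:101448407-101458698). Ifi35 had 74.3 TPM (527 counts) in technical replicate 2 and 42.3 TPM (854 counts) in technical replicate 1, a log2 ratio of 3.42 (3.26 to 3.58), or 10.7-fold. Isg15, the ubiquitin-like modifier whose promoter holds 3 overlapping ISRE cores, had 24.1 TPM (88 counts) in technical replicate 2 and 20.7 TPM (224 counts) in technical replicate 1, a log2 ratio of 2.77 (2.40 to 3.13). Those 2 genes held under every scaling. Usp18, the protease that removes ISG15 from proteins and restrains the type I receptor, had 1.25 TPM (12 counts) in technical replicate 2 and 12.7 TPM (385 counts) in technical replicate 1, a log2 ratio of −0.89 (−1.85 to −0.07), called neither way. The modifier and its protease thus did not share a call.

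Xaf1, a pro-apoptotic partner of XIAP, had 39.9 TPM (316 counts) in technical replicate 2 and 59.6 TPM (1148 counts) in technical replicate 1, a log2 ratio of 2.26 (2.07 to 2.44), called higher also by total counts although its TPM was lower. Rsad2, which encodes the antiviral enzyme viperin, had 13.2 TPM (283 counts) in technical replicate 2 and 39.1 TPM (2686 counts) in technical replicate 1, a log2 ratio of 0.87 by TMM and −0.39 by total counts. Its direction therefore depended on the scaling. Zbp1, a sensor of Z-form nucleic acid, had 21.8 TPM (82 counts) in technical replicate 2 and 33.5 TPM (1055 counts) in technical replicate 1, a log2 ratio of 0.43 (0.09 to 0.76), called neither way. Isg20, an exonuclease, had 3.91 TPM in technical replicate 2 and 40.7 TPM in technical replicate 1 (log2 ratio −0.85, −1.55 to −0.23). Rtp4 had 4.62 TPM in technical replicate 2 and 29.4 TPM in technical replicate 1 (−0.20, −0.71 to 0.26). Isg20 and Rtp4 were called neither way, as was Ifi44 with 3 counts in technical replicate 2 and 143 in technical replicate 1.

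The members with the largest TPM in technical replicate 1, Samd9l and Trim30a, were both lower in technical replicate 2. Technical replicate 1 is the denominator of the ratio, so a choice by its level favours lower ratios. Samd9l, which restrains translation during viral infection (chr6:3372257-3399572), had 9 counts (0.30 TPM) in technical replicate 2 and 20118 counts (205 TPM) in technical replicate 1. TMM scaling would place 1160 counts in technical replicate 2, and Samd9l was 129-fold lower, a log2 ratio of −7.01 (−8.14 to −6.08). This was the lowest ratio among the members. Trim30a, a TRIM family protein that limits toll-like receptor signalling in mice (chr7:104409025-104465193), had 152 counts (7.12 TPM) in technical replicate 2 and 8144 counts (166 TPM) in technical replicate 1, a log2 ratio of −1.63 (−1.87 to −1.40). With the GC trend removed Trim30a had a ratio of −0.42 and was called neither way.

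**Figure D3:**
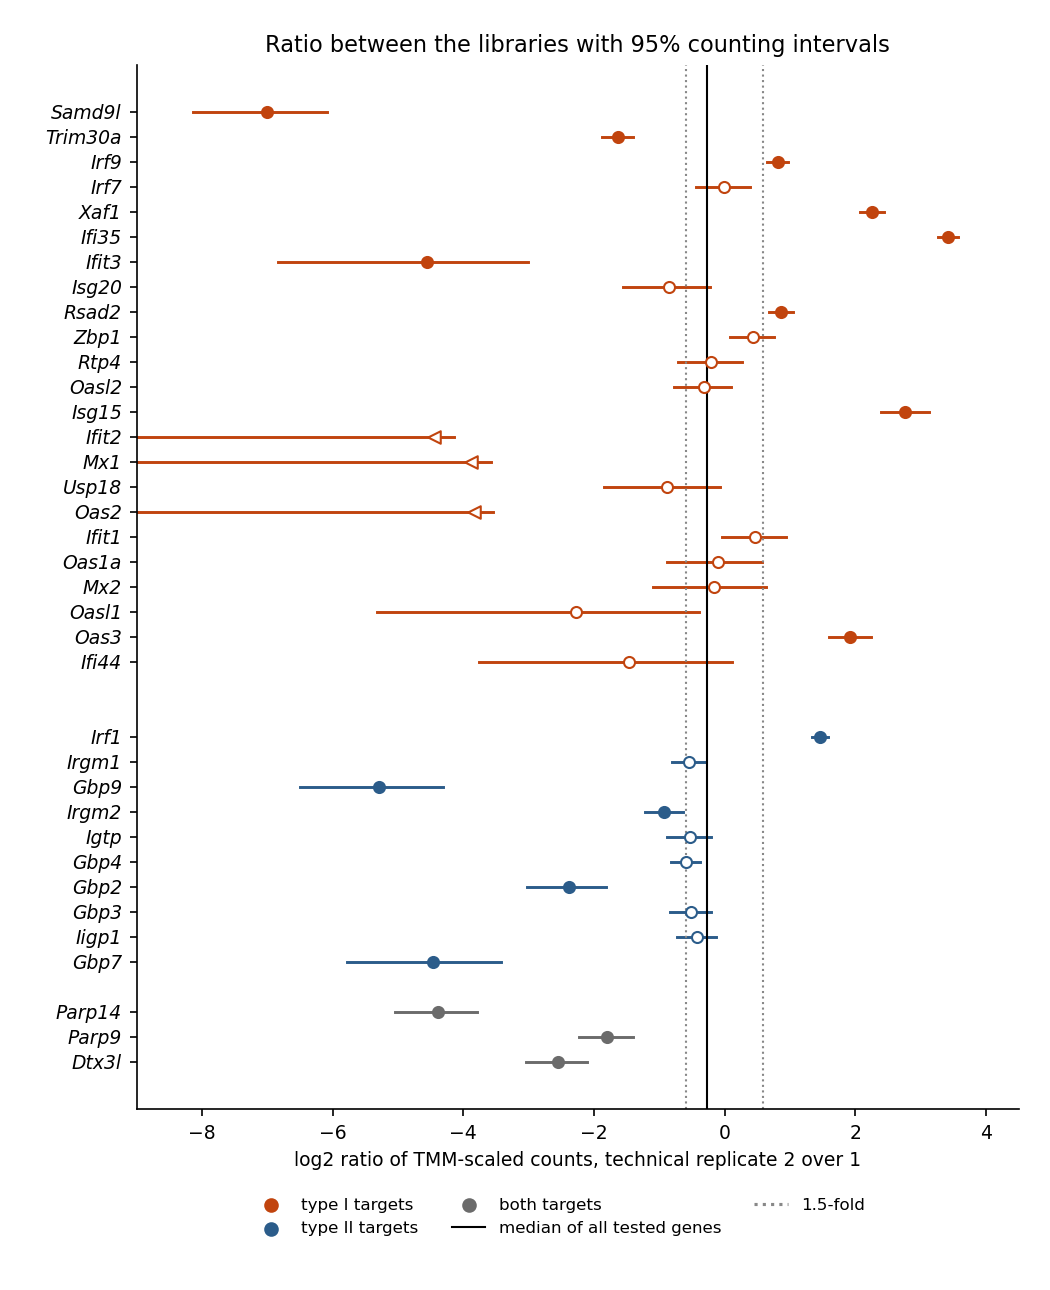
Log2 ratio of TMM-scaled counts, technical replicate 2 over technical replicate 1, for the 36 compared members, with exact 95% counting intervals. Filled points are called, open points are not, triangles are ratios at the floor of 3 counts, the dotted lines mark 1.5-fold and the solid line the median of all compared genes (−0.27). The called members spread on both sides, between −7.01 for Samd9l and 3.42 for Ifi35.

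The interferon regulatory factors among the members were called higher or neither way by TMM. Irf1, the factor that carries the type II response onward, had 58.5 TPM (664 counts) in technical replicate 2 and 120.2 TPM (4176 counts) in technical replicate 1. Its log2 ratio was 1.46 (1.34 to 1.58) by TMM, called higher, and 0.20 by total counts, called neither way. Irf9, the DNA-binding subunit of the type I complex, had 28.8 TPM (374 counts) in technical replicate 2 and 81.2 TPM (3695 counts) in technical replicate 1, a log2 ratio of 0.81 (0.66 to 0.97) by TMM and −0.45 by total counts. Irf7, the factor that amplifies interferon alpha production, had 4.47 TPM (54 counts) in technical replicate 2 and 61.2 TPM (945 counts) in technical replicate 1, a log2 ratio of −0.01 (−0.44 to 0.38), called neither way by TMM. Irf7 was lower by total counts (−1.27) and with the GC trend removed (−1.55), and with that step Irf1 had 0.35 and was called neither way. Irf1, Irf7 and Irf9 together held 26.6% of the members' TPM in technical replicate 2 and 15.1% in technical replicate 1.

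Of the GBP family, GTPases that attack the vacuoles of intracellular pathogens, 3 of 5 compared members were lower, beside 32.6% of all genes. The 5 matched members summed to 14.9 TPM in technical replicate 2 and 259 TPM in technical replicate 1, and the log2 ratio of their summed counts was −1.72 (−1.89 to −1.55). Gbp9 had 8 counts (0.53 TPM) in technical replicate 2 and 5397 counts (85.2 TPM) in technical replicate 1, a log2 ratio of −5.28 (−6.49 to −4.30). Gbp7 had 7 counts (0.22 TPM) in technical replicate 2 and 2672 counts (26.1 TPM) in technical replicate 1, a log2 ratio of −4.46 (−5.78 to −3.42). Gbp2 had 24 counts (1.72 TPM) in technical replicate 2 and 2174 counts (48.8 TPM) in technical replicate 1, a log2 ratio of −2.38 (−3.03 to −1.81). Those 3 were called lower under every scaling. Gbp3 had 6.01 TPM (88 counts) in technical replicate 2 and 46.1 TPM (2175 counts) in technical replicate 1, a log2 ratio of −0.51 (−0.84 to −0.20). Gbp4 had 6.46 TPM (167 counts) in technical replicate 2 and 52.5 TPM (4367 counts) in technical replicate 1, a log2 ratio of −0.59 (−0.82 to −0.37). Gbp3 and Gbp4 were called neither way by TMM and lower by total counts, although Gbp2 and Gbp3 had nearly equal counts in technical replicate 1. Gbp9 and Gbp4 overlap over 23773 bases on the same strand at chr5:105077630-105139586, so their reads may have been divided between them.

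The IRG family, immunity-related GTPases that act on the same vacuoles, was more even by TMM. Irgm1 and Igtp were called neither way by TMM. By total counts all 4 members were lower, beside 58.5% of all genes. Irgm1 had 10.9 TPM (136 counts) in technical replicate 2 and 99.3 TPM (3441 counts) in technical replicate 1, a log2 ratio of −0.54 (−0.80 to −0.30). Igtp (also called Irgm3) had 7.23 TPM (76 counts) in technical replicate 2 and 54.98 TPM (1905 counts) in technical replicate 1, a log2 ratio of −0.53 (−0.88 to −0.20). Irgm2 had 5.38 TPM (105 counts) in technical replicate 2 and 55.1 TPM (3445 counts) in technical replicate 1, a log2 ratio of −0.92 (−1.21 to −0.64), called lower by TMM and neither way by DESeq2 size factors. The genes Igtp and Irgm2 overlap over 7974 bases on the same strand, so their reads may have been divided between them. Iigp1, an effector GTPase, had 5.83 TPM (96 counts) in technical replicate 2 and 42.2 TPM (2226 counts) in technical replicate 1, a log2 ratio of −0.42 (−0.73 to −0.12), called neither way. With the GC trend removed the ratio of Iigp1 was 1.06 and called higher. That step gave 0.285 for Irgm1, −0.22 for Igtp and −0.16 for Irgm2, all called neither way.

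The 3 targets of both interferons, Parp14, Dtx3l and Parp9, lie at chr16:35832874-35972605 and were lower under every scaling. PARP14 is an ADP-ribosyltransferase that acts in STAT6 signalling, and DTX3L and PARP9 form a ubiquitin ligase complex that acts in DNA damage and interferon responses. Parp14 had 23 counts (0.54 TPM) in technical replicate 2 and 8312 counts (61.2 TPM) in technical replicate 1, a log2 ratio of −4.38 (−5.04 to −3.79). Dtx3l had 39 counts (1.46 TPM) in technical replicate 2 and 3965 counts (40.8 TPM) in technical replicate 1, a log2 ratio of −2.55 (−3.05 to −2.10). Parp9 had 52 counts (3.12 TPM) in technical replicate 2 and 3139 counts (59.5 TPM) in technical replicate 1, a log2 ratio of −1.80 (−2.22 to −1.40). The partners Dtx3l and Parp9 had the same direction. They overlap over 682 bases on opposite strands, and the sources used here do not say whether counting used strand.

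**Figure D4:**
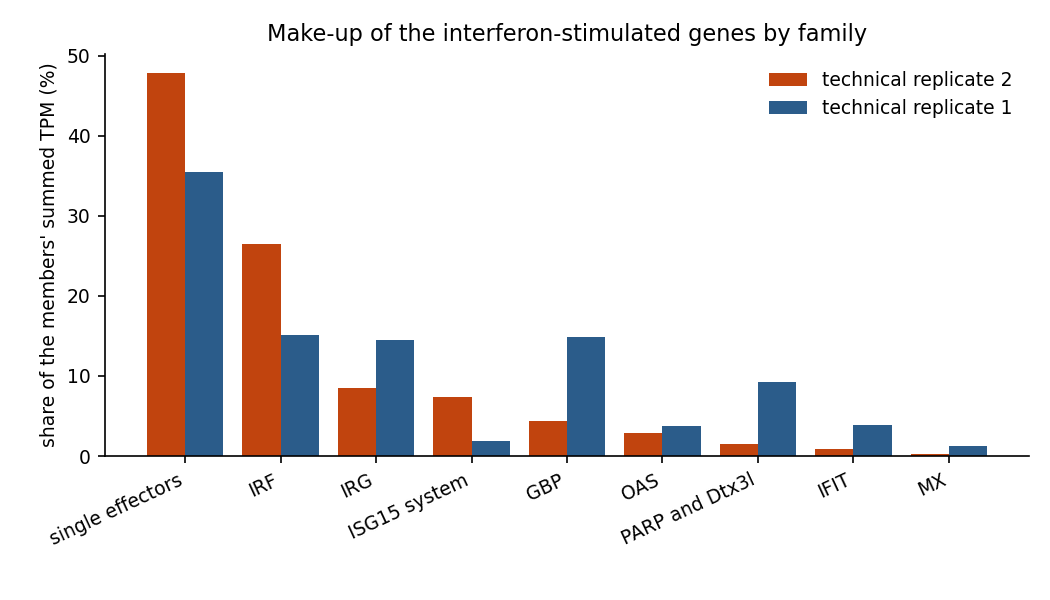
Share of the members' summed TPM held by each family, in percent, in technical replicate 2 (orange) and technical replicate 1 (blue). The IRF family holds 26.6% in technical replicate 2 and 15.1% in technical replicate 1, and the GBP family 4.32% in technical replicate 2 and 14.8% in technical replicate 1.

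Detection of the members was close to that of other genes. Of the 13 members called lower, 8 were under 1 TPM in technical replicate 2 (61.5%), beside 2214 of 4060 genes called lower (54.5%). Of 36 compared members, all with 1 TPM in technical replicate 1, 25 also reached it in technical replicate 2 (69.4%), beside 8823 of 12404 genes (71.1%).

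The ratios followed the GC content of the genes, in the members as in all genes. GC content was the mean over the annotated transcripts of a gene, and its Spearman correlation with the log2 ratio was 0.43 over 36 members and 0.51 over all compared genes. With mean transcript length the correlation was −0.43 over members and −0.34 over all genes. In the lowest of 10 bins of GC content (30.8 to 42.5%) the median log2 ratio was −1.66 and 61.3% were lower, and in the highest bin (57.7 to 70.7%) it was 2.27 and 5.79% were lower. Samd9l, at 38.8% GC, lay in the lowest bin, and Ifi35 and Irf1, both called higher, lay in bin 8. With the GC trend removed the median log2 ratio of the members was −0.29, beside −0.25 over all genes. That step ended the calls of Irf1 (0.35), Oas3 (0.60), Trim30a (−0.42) and Irgm2 (−0.16). It made Ifit1 (1.57) and Iigp1 (1.06) higher, and Irf7 (−1.55), Isg20 (−2.38) and Oasl1 (−3.86) lower. Xaf1 lay above the genes of like GC content, and Oas2, Mx1 and Parp14 below them, as the plot of ratio against GC content shows.

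**Figure D5:**
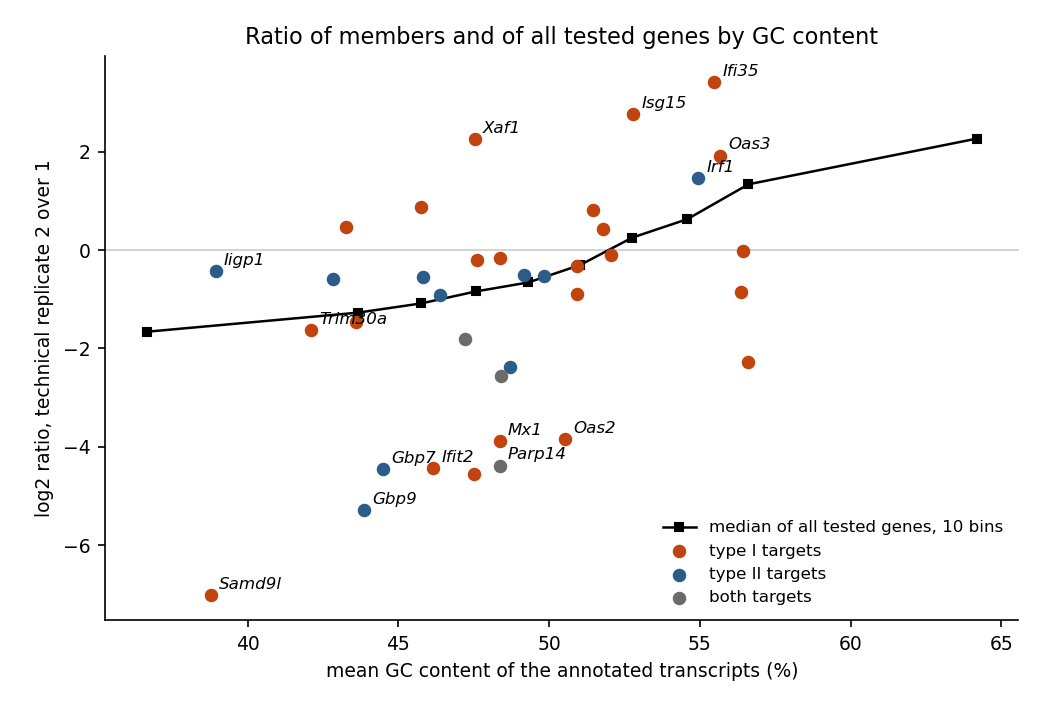
Log2 ratio of TMM-scaled counts, technical replicate 2 over technical replicate 1, against the mean GC content of annotated transcripts in percent, for 36 members coloured by type and for the median of all compared genes in 10 bins (black line). The line runs between −1.66 in the lowest bin and 2.27 in the highest, and Samd9l at −7.01 lies furthest under it.

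The transcript tables showed which isoform carried each member. Of 26 members with at least 50 counts over both libraries, at least 2 transcripts and a count in both, 21 had the same leading transcript and 5 a different one. By the deposited posterior mean shares, which average over the possible assignments of reads, 19 of the 26 had the same leading transcript. By the deposited estimate 20 of the 26 members had at least 99% of their TPM in 1 transcript in technical replicate 2 and 5 in technical replicate 1, but by posterior mean 1 did in technical replicate 2 and 2 in technical replicate 1. Shares in technical replicate 2 therefore depended on the estimate.

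Zbp1 was led by a transcript of 770 bases with 99.6% of its TPM in technical replicate 2 and by one of 1989 bases with 48.1% in technical replicate 1, and by posterior mean with 99% in technical replicate 2 and 47.99% in technical replicate 1. A shorter transcript gives more TPM per count. Irf7 was led by a coding transcript of 2237 bases in technical replicate 2, with 90.4% of its TPM but 34.5% by posterior mean, and by a retained-intron transcript of 687 bases in technical replicate 1, with 41.8% and 40.9% by posterior mean. Gbp3 was led by a transcript of 2629 bases in technical replicate 2, with all of its TPM but 37.7% by posterior mean, and by one of 2682 bases in technical replicate 1, with 85.3% and 80.96% by posterior mean. These leads held by both estimates, as did a different lead in Gbp9, on 8 counts in technical replicate 2. Mx2, on 13 counts in technical replicate 2, had a different lead by the deposited estimate, but by posterior mean a transcript annotated as a polymorphic pseudogene led in both libraries, with 31.3% in technical replicate 2 and 67.8% in technical replicate 1.

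Retained-intron transcripts took a small share of the members' counts, most of it in technical replicate 1. The 26 annotated transcripts held 0 of 3669 member counts in technical replicate 2 (exact interval 0 to 0.1%, counting error alone). They held 3019 of 94859 counts in technical replicate 1 (3.18%, exact interval 3.07 to 3.30%). By posterior mean they held 7.94 counts (0.216%) in technical replicate 2 and 3022 counts (3.19%) in technical replicate 1. Over all compared genes the shares ran the other way, with 9.61% of counts in technical replicate 2 and 4.804% in technical replicate 1 on retained-intron transcripts. Oasl2 was led in both libraries by a transcript annotated for nonsense-mediated decay, with 94.4% of its TPM in technical replicate 2 (69.4% by posterior mean) and 62.1% in technical replicate 1 (60.6% by posterior mean).

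Of the genes that make and carry the interferon signal, the ligands were nearly all at 0. Of 9 ligand genes, 8 were at 0 counts in both libraries, among them Ifnb1 and the 3 interferon alpha genes on the list. Ifng, interferon gamma itself, had 7 counts (1.11 TPM) in technical replicate 2 and 27 counts (1.39 TPM) in technical replicate 1, too few to be compared. Of 20 compared pathway genes, 5 were lower and 6 higher, beside 32.6% and 28% over all genes. By total counts 11 were lower and 2 higher, beside 58.5% and 14.6% over all genes.

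Receptor subunits were called higher or neither way by TMM. By total counts Ifngr1 (−1.18), Il10rb (−1.12) and Ifnar2 (−1.67) were lower, Ifnar1 (−0.09) was called neither way and Ifngr2 (0.84) higher. Ifngr1, the ligand-binding chain for interferon gamma, had 30.8 TPM in technical replicate 2 and 185 TPM in technical replicate 1 (log2 ratio 0.08). Ifngr2 had 30.3 TPM in technical replicate 2 and 63.5 TPM in technical replicate 1 (2.10, called higher), and Ifnar1 had 33.95 TPM in technical replicate 2 and 65.5 TPM in technical replicate 1 (1.17, called higher). Il10rb, shared with the interleukin 10 receptor, had 20.2 TPM in technical replicate 2 and 103 TPM in technical replicate 1 (0.14). The kinases took different calls by TMM. Jak1 had 7.78 TPM in technical replicate 2 and 262 TPM in technical replicate 1 (−2.53), Jak2 had 1.73 TPM in technical replicate 2 and 79.5 TPM in technical replicate 1 (−3.11), and both were lower under every scaling. Tyk2 had 7.82 TPM in technical replicate 2 and 17.6 TPM in technical replicate 1 (1.26, called higher by TMM, and −0.004 by total counts, called neither way).

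Among the transcription factors, Stat2 had 3.56 TPM in technical replicate 2 and 44.2 TPM in technical replicate 1 (−1.20). Irf2, a repressor of these genes, had 3.26 TPM in technical replicate 2 and 81.1 TPM in technical replicate 1 (−2.19). Stat2 and Irf2 were lower under every scaling, whereas Irf9, which acts with STAT2, was called higher by TMM. Stat3 had 31.5 TPM in technical replicate 2 and 76.7 TPM in technical replicate 1 (1.77), and Irf5 had 55.9 TPM in technical replicate 2 and 76.4 TPM in technical replicate 1 (1.79). Both were called higher by TMM and neither way by total counts (0.51 for Stat3 and 0.53 for Irf5). Irf8, with 27.8 TPM in technical replicate 2 and 139 TPM in technical replicate 1 (0.10), was called neither way by TMM and lower by total counts (−1.17). Among inhibitors, Ptpn2 had 17.7 TPM in technical replicate 2 and 61.3 TPM in technical replicate 1 (0.51) and Pias1 had 5.49 TPM in technical replicate 2 and 38.8 TPM in technical replicate 1 (−0.39), and neither was called. Socs1, itself induced by interferon gamma, had 18 counts in technical replicate 2 and 34 in technical replicate 1 (3.20) and was higher under every scaling.

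Of a further 42 interferon-stimulated genes outside the members, 41 were matched and 40 compared. Of these 21 were lower (52.5%), 6 higher and 13 neither, beside 32.6% lower and 28% higher over all genes. Their median log2 ratio was −1.24, beside −0.27 over all genes. With the GC trend removed 17 were lower and 4 higher, beside 30.3% lower and 23.7% higher over all genes. By total counts 33 were lower and 3 higher, beside 58.5% lower and 14.6% higher over all genes. Bst2, the virus tether tetherin, had 526 TPM (1943 counts) in technical replicate 2 and 62.9 TPM (690 counts) in technical replicate 1, a log2 ratio of 5.61. Ube2l6, the conjugating enzyme for ISG15, had 218 TPM in technical replicate 2 and 175 TPM in technical replicate 1 (2.85), and Psmb9, an immunoproteasome subunit, had 244 TPM in technical replicate 2 and 126 TPM in technical replicate 1 (2.96). Bst2, Ube2l6 and Psmb9 were higher under every scaling, as Isg15 was. Dhx58 (1.95), Ifi27l2a (1.15) and Tap1 (1.05) were called higher by TMM and neither way by total counts. Bst2 also marks plasmacytoid dendritic cells, and of 5 markers of that cell type 3 were at 1 TPM in technical replicate 2 and 4 in technical replicate 1, with Bst2 counted among them. Their sum was 533 TPM in technical replicate 2 and 128 TPM in technical replicate 1, nearly all of it Bst2 in technical replicate 2, where Ccr9 and Cox6a2 were at 0, and their part in the result was not tested.

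Sp100, a nuclear body protein, had 24.5 TPM in technical replicate 2 and 579 TPM in technical replicate 1 (−1.87), the highest level on this list in technical replicate 1. The DNA-sensing family members Ifi203 (−2.72), Ifi204 (−2.18) and Ifi205 (−1.09) were lower, although Ifi205 was called neither way by DESeq2 size factors. So were the IRG relatives Tgtp1 (−6.22), Tgtp2 (−2.44) and Ifi47 (−1.50), of which Tgtp1 and Tgtp2 are near copies. The ratio of Tgtp1 rested on 1 count in technical replicate 2 (interval −11.52 to −3.74). Posterior mean counts there were 10.8 for Tgtp1 and 33.2 for Tgtp2, against expected counts of 1 and 43, so the size of the Tgtp1 ratio depended on the estimate. Gbp8 (−3.20) and the row named Gbp2b (−3.64) were lower, and nearly all counts of that row lie on a transcript named Gbp5. Cxcl9, a chemokine induced by interferon gamma (−1.59), Nlrc5, an activator of class I genes (−1.91), Helz2 (−1.39), Znfx1 (−1.09), Trim21 (−2.41), Trim34a (−1.39), Ifitm1 (−2.27), Lgals3bp (−2.24) and Lgals9 (−1.67) were lower as well.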

How the data were processed

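RNA-seq of 2 libraries from 1 mouse spleen was analysed. The authors deposited a gene table and a transcript table per library, on genome build mm10 with GENCODE M4, per the submitters' processing notes and the file headers. The aligner and quantifier are not given in the sources used here. The deposited expected counts divide shared reads among genes. The deposited TPM values sum to 1000000 per library. The deposited percent values give each transcript's share of its gene's TPM. The deposited lengths are an other measure, in bases.

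Of 69691 gene rows, 43346 carry an Ensembl identifier and 42462 were matched to a symbol of GENCODE M21 (GRCm38). The other 26345 rows, with 2.10e-04% of counts in technical replicate 2 and 1.09e-05% in technical replicate 1, were left out. Expected counts were rounded, and totals were 3806385 in technical replicate 2 and 27528810 in technical replicate 1. A gene was compared from 50 counts in all and 1 TPM on average. Ratios were scaled by TMM (edgeR 4.0.16, R 4.3.3), with exact Clopper-Pearson 95% intervals conditional on the counts, and a call needed all of the interval to exceed 1.5-fold. Counts of 0 took a floor of 3 per library. Neither intervals nor floors reach beyond counting error, because PCR copies are not separate molecules. With 1 library a side there is no p-value.

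The members and gene lists were chosen with earlier results of these data known. By rule, members called or at 10 TPM or more in either library were given full values, and outside genes were named when among the 3 highest of a list or role, or when called with a mean TPM of at least 10. A gene that the rule names is not reported here. Promoters came from RefSeq (GRCm38.p6). Of 34 windows of members, 29 had the bases after the start in a GENCODE transcript of the gene. Alternatives were DESeq2 1.42.0 size factors, total counts, other filters, thresholds and intervals, posterior mean counts, pseudocounts on TPM and removal of the GC trend by lowess (statsmodels 0.14.6). The calling rule alone was run on simulated counts, with means and scaling taken from these libraries, before members were compared. Python 3.11.15 ran the rest, with scipy 1.17.1, pandas 2.3.3, numpy 2.4.6 and matplotlib 3.10.9.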

Additional observations from a re-analysis of the deposited data

Results flagged for a closer look

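A signal was present in data outside the 37 matched members. The transcript named Gbp5, whose gene is a listed member without a row under its own identifier, is listed in the row of the gene now named Gbp2b. It held 9 counts (0.53 TPM) in technical replicate 2 and 1888 counts (34.9 TPM) in technical replicate 1, which was all of that row's TPM in technical replicate 2 and 96.7% in technical replicate 1. Its log2 ratio by TMM was −3.60 (95% counting interval −4.73 to −2.67). The values were therefore read from the transcript and were not added to the counts of members.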

How the results depend on the processing

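No paired analysis was possible because each side has 1 library, and for the same reason no library could be left out. Of 36 compared members, 15 kept their call in all 8 alternatives run on single ratios. A change of sign in a member called neither way in both settings was not counted as a change. Total counts gave median log2 ratios of −1.83 for all members, −1.46 for type I and −1.83 for type II targets, beside −1.53 over all genes. With that scaling 27 members were lower and 3 higher, 11 pathway genes lower and 2 higher, and 33 companion genes lower and 3 higher. Over all genes 58.5% were lower and 14.6% higher. By total counts Irf9 (−0.45) and Rsad2 (−0.39), called higher by TMM, reversed. Ifit1 (−0.79) and Zbp1 (−0.83), called neither way by both scalings, also changed sign. Removal of the GC trend gave −0.29 for all members, −0.12 for type II and a type II minus type I difference of 0.22. With that step 8 pathway genes were lower, beside 30.3% of all genes, and Iigp1 reversed at 1.06. The same step ended the calls of Irf1, Oas3, Trim30a and Irgm2 and made calls for Ifit1, Irf7, Isg20 and Oasl1. TPM ratios with a pseudocount of 1 gave −2.44 for type I and −2.96 for type II, beside −2.10 over all genes. With a pseudocount of 0.1 they gave −2.75 for type I and −3.09 for type II. At 5 TPM, 14 members were detected in technical replicate 2. For transcript shares, posterior mean values were added after seeing the data. The causes were not tested. DESeq2 size factors, other filters, a 2-fold threshold, 99% intervals and posterior mean counts left the counts of members called within 1.5 times.

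Depth limits technical replicate 2: a member expected at under 3 counts there, such as Oas1g, could not be compared.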

Other observations

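A row of the gene Gm43302 on chromosome 5 held 37 counts of the transcript named for it in technical replicate 2 and 1735 in technical replicate 1 (log2 ratio −1.43, 95% counting interval −1.95 to −0.97). The same row held 0 counts of a Gbp10 transcript in technical replicate 2 and 131 in technical replicate 1. No row was matched to the listed member Gbp6.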
